A study of Schizosaccharomyces pombe
Saccharomyces cerevisiae with 24 samples.

Results

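Old yellow enzymes and other inducible oxidoreductases of budding yeast were followed as a set of 7 genes, picked by systematic identifier from the 7127 genes of the deposited count tables. The set holds OYE2 (YHR179W), OYE3 (YPL171C), YNL134C, YML131W, YKL071W, GRE2 (YOL151W) and GTT2 (YLL060C). All 7 passed the filter on low counts, which kept 6069 genes. The genes were proposed with their ratios between cultures with and without 4-thiouracil (4sU), and between labeled and total RNA, already known from these libraries. For these 7 genes the ratios are therefore given as a description with no test, and only their change between 60 and 20 min in galactose was tested.

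Old yellow enzymes are flavoproteins that use NADPH to reduce electrophilic carbon-carbon double bonds. In yeast they belong to a wider set of reductases and glutathione-linked enzymes that dispose of reactive aldehydes, quinones and other electrophiles, and many genes of this set are switched on by activators such as Yap1 when thiol-reactive or oxidizing compounds reach the cell. Gre2p reduces ketones and aldehydes such as methylglyoxal with NADPH, and Gtt2p is a glutathione transferase, which joins glutathione to electrophilic compounds. For YNL134C, YML131W and YKL071W no role beyond membership in the set is given here.

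RNA came from diploid W303 cultures grown in raffinose, to which galactose was added. At 20 or 60 min after galactose, 4sU, a uracil analog that enters new RNA, was added for 6 min. Flasks without 4sU served as controls. Labeled RNA (biotinylated through the thiol and bound to streptavidin), unlabeled RNA (the flow-through) and total RNA were sequenced with 4sU at 60 min, with 4sU at 20 min, without 4sU at 60 min and without 4sU at 20 min, in 2 replicates each (24 libraries). Each culture was split over both times and both treatments, and 4sU-labeled S. pombe cells were mixed into every sample, those without 4sU included. Values below are S. pombe-normalized counts, raw counts divided by the S. pombe reads of the library over 2000000. The pull-down enriches S. pombe RNA as well, so this scale compares libraries of 1 fraction, and a ratio between fractions can only be read against the same ratio in other genes. RNA was taken from whole cultures, in which more cells with a transcript and more transcript per cell cannot be told apart.

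Total counts per library ran from 1073888 to 38373886. The labeled library without 4sU at 20 min in replicate 1 stood apart, with about 3259200 normalized counts in all against 223300 to 328600 in the other 3 labeled libraries without 4sU. The raw counts of YKL071W were the lowest of the set, with 1 to 4 in unlabeled RNA with 4sU and 1 to 6 in labeled RNA without 4sU, so its values there carry a large counting error.

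In total RNA the 7 genes had higher levels with 4sU than without, at both times and in both replicates. OYE2 had 4549 and 5190 normalized counts with 4sU at 60 min, against 335 and 285 without 4sU. At 20 min OYE2 had 5218 and 4013 with 4sU, against 270 and 131 without 4sU. Every library with 4sU was thus far above every library without it, and the ratio of means was 15.7 at 60 min and 23.0 at 20 min. OYE3 is the paralog of OYE2, and since multi-mapping reads were counted, reads that fit both genes may stand in both counts. OYE3 had 780 and 821 normalized counts with 4sU at 60 min, against 56.8 and 46.3 without 4sU. At 20 min OYE3 had 2893 and 2018 with 4sU, against 166 and 55.2 without 4sU. The ratio was close to that of OYE2, 15.5 at 60 min and 22.2 at 20 min, although the level of OYE3 with 4sU was lower at 60 min than at 20 min.

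YNL134C had 1940 and 2248 normalized counts in total RNA with 4sU at 60 min, against 99.5 and 83.1 without 4sU. At 20 min YNL134C had 1851 and 1682 with 4sU, against 114 and 73.0 without 4sU. The groups lay as far apart as those of the old yellow enzymes, with a ratio of 22.9 at 60 min and 18.8 at 20 min. GRE2 had 1444 and 1838 normalized counts with 4sU at 60 min, against 167 and 108 without 4sU. At 20 min GRE2 had 1112 and 784 with 4sU, against 127 and 61.4 without 4sU. Its ratio was 11.9 at 60 min and 10.05 at 20 min.

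The other 3 genes had smaller ratios or fewer counts. YML131W had 541 and 692 normalized counts in total RNA with 4sU at 60 min, against 85.5 and 93.7 without 4sU. At 20 min YML131W had 750 and 790 with 4sU, against 296 and 274 without 4sU. Its ratio was 6.88 at 60 min and 2.70 at 20 min, and the level without 4sU differed more between the times than the level with 4sU. GTT2 had 136 and 127 normalized counts with 4sU at 60 min, against 64.1 and 53.0 without 4sU, and at 20 min 209 and 144 with 4sU, against 61.5 and 34.4 without 4sU. Its ratio, 2.25 at 60 min and 3.67 at 20 min, was the lowest of the set at 60 min. YKL071W had 21.7 and 36.7 normalized counts with 4sU at 60 min, against 2.21 and 2.23 without 4sU, and at 20 min 23.3 and 26.5 with 4sU, against 4.32 and 3.68 without 4sU. From pooled raw counts its ratio was 10.9 at 60 min (95% exact interval 5.22 to 27.5, 233 against 7 counts) and 6.40 at 20 min (3.25 to 14.0, 60 against 10 counts), where the intervals cover counting error only.

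**Figure D1:**
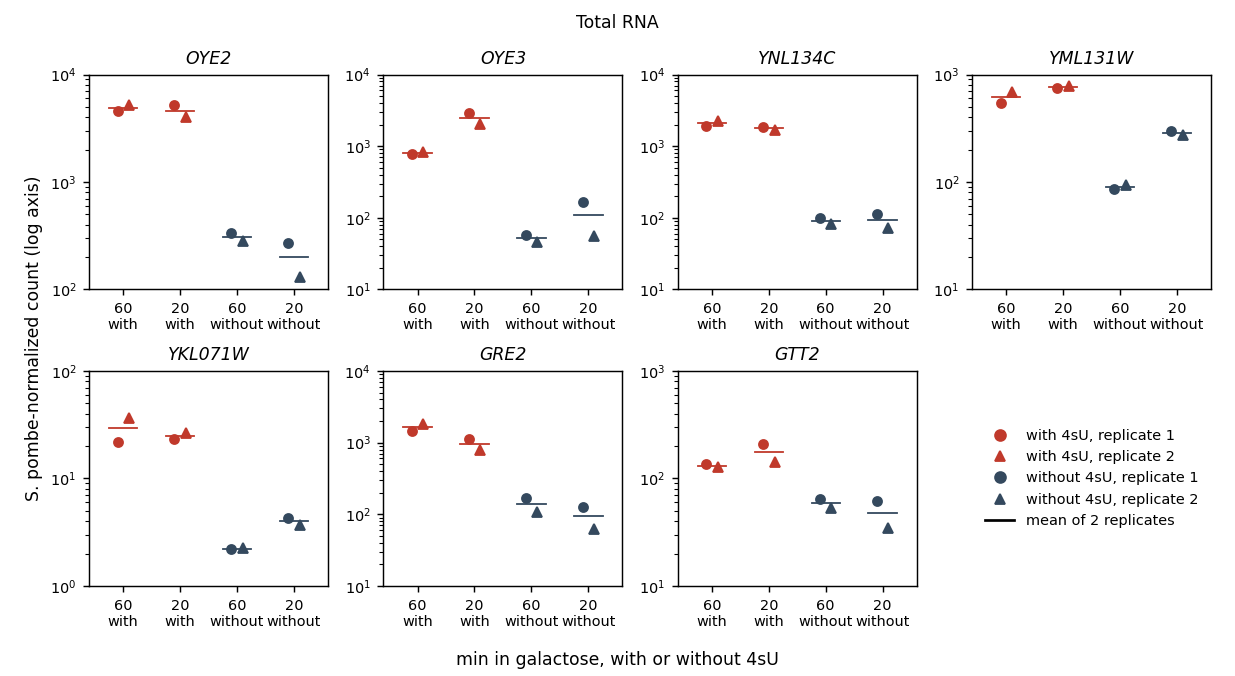
Each panel plots 1 gene in total RNA, with the S. pombe-normalized count on a log axis against the group, circles and triangles for replicates 1 and 2, and a line for their mean. In all 7 panels the 4 libraries with 4sU lie above the 4 without, by ratios of means from 2.25 (GTT2, 60 min) to 23.0 (OYE2, 20 min).

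Set against the other genes, the ratios stood at the top of the distribution, which is how the genes came to be proposed. The median ratio over all genes with a value was 1.05 at 60 min (6030 genes) and 1.28 at 20 min (5957 genes), and the median of the 7 genes was 13.1 at 60 min and 10.05 at 20 min. At 60 min the median of the 7 was the value of YKL071W, which rests on 7 pooled raw counts without 4sU. All 7 were at least 2-fold higher with 4sU in both replicates at both times, where 2.39% of all genes tested were so at 60 min and 4.47% at 20 min. Both libraries with 4sU lay above both without in 25.7% of genes at 60 min and 33.1% at 20 min. By rank, YNL134C was at 2 at 60 min and 5 at 20 min, OYE2 at 7 and 2, and OYE3 at 8 and 3. The lowest ranks in the set were 196 at 60 min (GTT2) and 177 at 20 min (YML131W). The old yellow enzymes and YNL134C thus had the highest ratios of the set at both times, while YML131W and GTT2 changed places at the low end. Ratios at the 2 times rest on 2 replicates each and were not tested against each other.

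**Figure D2:**
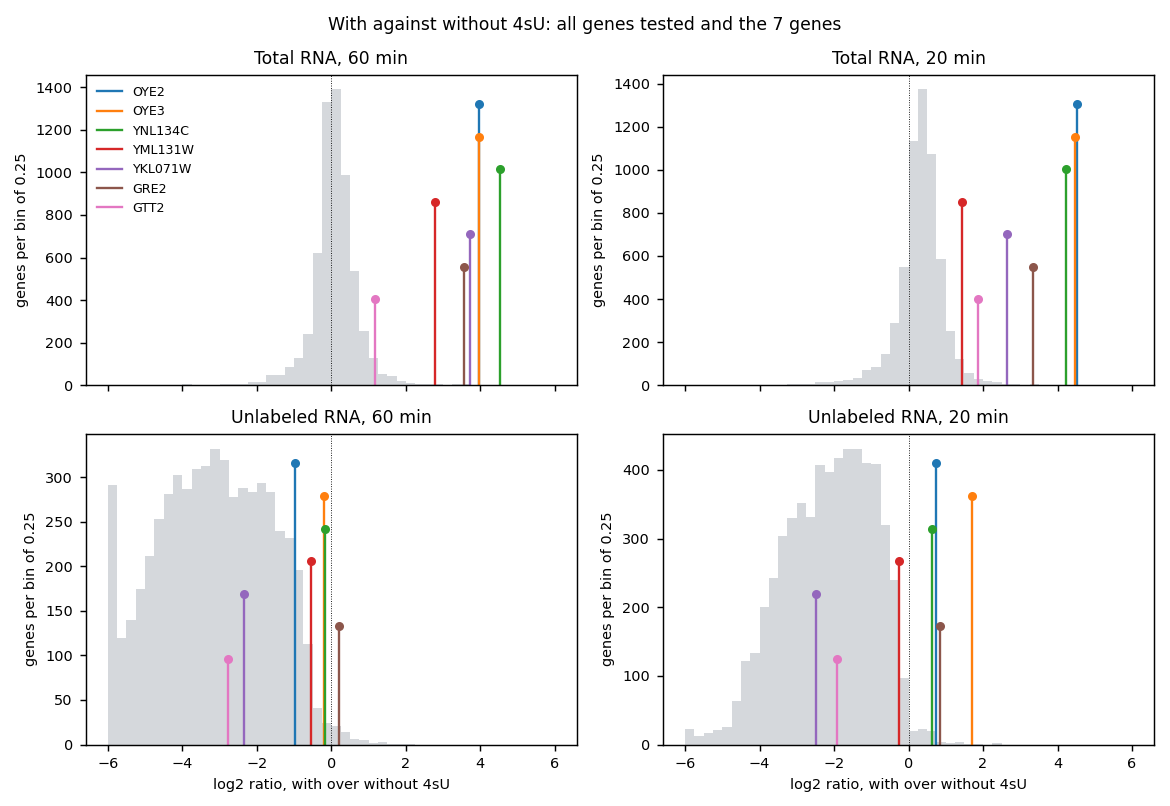
Grey bars count all genes with a value by their log2 ratio of means with over without 4sU, in bins of 0.25 with values beyond -6 in the outermost bin, and colored stems mark the 7 genes, in total RNA (top) and unlabeled RNA (bottom) at 60 min (left) and 20 min (right). In total RNA the 7 genes lie to the right of nearly all genes, from 1.17 to 4.52 at 60 min, and in unlabeled RNA from -2.79 to 0.22 at 60 min, where the median of all genes is -3.14.

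Unlabeled RNA did not follow total RNA. Over all genes with a value, the median ratio of unlabeled RNA with over without 4sU was 0.114 at 60 min and 0.241 at 20 min, so most genes had less unlabeled RNA with 4sU on this scale, and the values of the set are read against that. OYE2 had 148 and 195 normalized counts with 4sU at 60 min, against 237 and 439 without 4sU. At 20 min OYE2 had 258 and 621 with 4sU, against 218 and 308 without 4sU. The groups overlapped at 20 min and not at 60 min, where both libraries with 4sU were below both without, as in 91.8% of all genes (85.3% at 20 min). OYE3 had 38.1 and 61.5 with 4sU at 60 min, against 44.0 and 69.8 without 4sU, and at 20 min 178 and 388 with 4sU, against 70.0 and 104 without 4sU. At 20 min it was the only gene of the set that was at least 2-fold higher with 4sU in both replicates, as were 5 of 6069 genes (0.0824%), and its ratio of 3.25 held rank 4.

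YNL134C had 78.0 and 132 normalized counts in unlabeled RNA with 4sU at 60 min, against 109 and 129 without 4sU. At 20 min YNL134C had 249 and 344 with 4sU, against 213 and 169 without 4sU. The groups overlapped at 60 min only. At 20 min YNL134C and OYE3 had both libraries with 4sU above both without, as had 0.28% of all genes. GRE2 had 72.8 and 156 with 4sU at 60 min, against 85.7 and 112 without 4sU, and at 20 min 80.2 and 210 with 4sU, against 83.4 and 79.7 without 4sU. YML131W had 67.0 and 110 with 4sU at 60 min, against 93.5 and 165 without 4sU, and at 20 min 216 and 519 with 4sU, against 381 and 491 without 4sU. For GRE2 and YML131W the groups overlapped at both times. The ratios of these 5 genes, old yellow enzymes included, ran from 0.507 to 1.16 at 60 min and from 0.843 to 3.25 at 20 min, above the median gene at each time.

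GTT2 and YKL071W had lower ratios than the other 5 in this fraction. GTT2 had 10.98 and 9.71 normalized counts with 4sU at 60 min, against 64.4 and 78.4 without 4sU, and at 20 min 8.85 and 20.4 with 4sU, against 50.7 and 59.1 without 4sU. Both libraries with 4sU were below both without at each time, with a ratio of 0.145 at 60 min and 0.266 at 20 min. The median gene had 0.114 and 0.241, so GTT2 also lay above it. YKL071W had 0.578 and 1.85 with 4sU at 60 min, against 4.72 and 7.67 without 4sU, and at 20 min 0.632 and 2.63 with 4sU, against 7.83 and 10.3 without 4sU. From pooled raw counts its ratio was 0.209 at 60 min (95% exact interval 0.0595 to 0.606, 5 against 15 counts) and 0.186 at 20 min (0.0561 to 0.488, 5 against 28 counts). By ratios of means YKL071W was above the median gene at 60 min (0.196) and below it at 20 min (0.180). Both genes were at least 2-fold lower with 4sU in both replicates at both times, as were 84.6% of all genes tested at 60 min and 69.8% at 20 min.

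**Figure D3:**
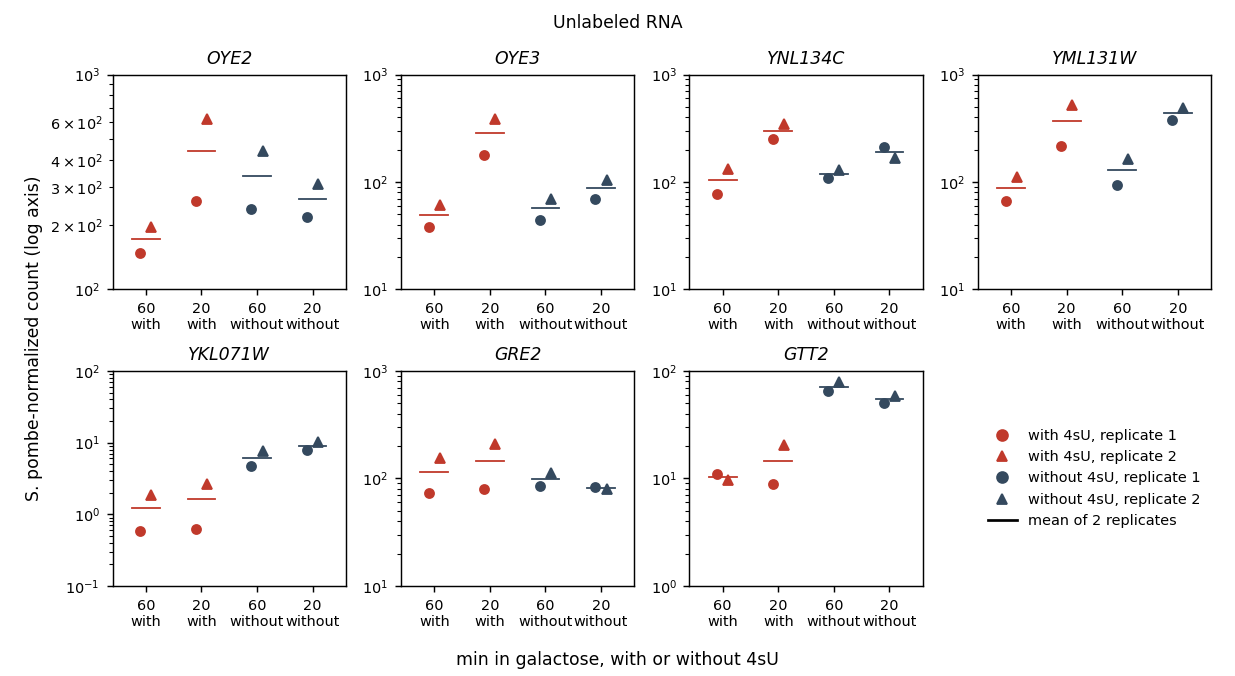
Each panel plots 1 gene in unlabeled RNA, with the S. pombe-normalized count on a log axis against the group, circles and triangles for replicates 1 and 2, and a line for their mean. GTT2 and YKL071W lie lower with 4sU at both times, while OYE3 lies higher with 4sU at 20 min (178 and 388 against 70.0 and 104).

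The ratio of unlabeled to total RNA falls out of the same values. With 4sU it was 0.0352 for OYE2 at 60 min and 0.0952 at 20 min, against medians over genes with at least 10 counts in both total libraries of 0.117 and 0.241. The whole set ran from 0.0352 to 0.144 at 60 min with 4sU and from 0.0654 to 0.477 at 20 min, with YML131W highest at both times. Without 4sU the set ran from 0.716 to 2.79 at 60 min and from 0.786 to 2.27 at 20 min, against medians of 1.16 and 1.29. Both upper ends without 4sU were YKL071W, on 3 to 6 raw counts per total library, below the 10 that the medians required. The other genes reached 1.44 at 60 min (YML131W) and 2.04 at 20 min (YNL134C). With 4sU, all genes of the set but YML131W were below the median gene at both times.

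In labeled RNA the set had high counts with 4sU and little background without it. OYE2 had 46189 and 73877 normalized counts with 4sU at 60 min, against 43.6 and 39.3 without 4sU, and at 20 min 78395 and 70426 with 4sU, against 83.7 and 29.3 without 4sU. YNL134C had 26878 and 36229 with 4sU at 60 min, against 18.1 and 17.1 without 4sU, and at 20 min 44897 and 37645 with 4sU, against 53.5 and 18.6 without 4sU. For both genes the labeled RNA with 4sU exceeded the background over 1000 times in the ratio of means. OYE3 had 5011 and 6576 with 4sU at 60 min, against 2.78 and 2.91 without 4sU, and at 20 min 16121 and 17634 with 4sU, against 64.5 and 2.80 without 4sU. GRE2 had 8585 and 11430 with 4sU at 60 min, against 10.3 and 3.33 without 4sU, and at 20 min 6981 and 5966 with 4sU, against 46.0 and 4.77 without 4sU. In OYE3 and GRE2 the background at 20 min was thus set by replicate 1, the library that stood apart.

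YML131W had 4014 to 6052 normalized counts in labeled RNA with 4sU, against 10.8 to 217 without 4sU. GTT2 had 986 to 1795 with 4sU, against 2.47 to 13.0 without 4sU, and YKL071W had 287 to 373 with 4sU, against 0.164 to 1.67 without 4sU. In each of the 3 genes every library with 4sU lay above every library without it, as did those of 99.3% of all genes at 60 min and 98.4% at 20 min. At 60 min the ratios of means in the set ran from 216 (YKL071W) to 2036 (OYE3), where the median gene had 63.1. At 20 min they ran from 48.8 (YML131W) to 1318 (OYE2), where the median gene had 33.5. Against the replicate 2 background alone, the ratios at 20 min were 248 for YML131W, 2542 for OYE2 and 6038 for OYE3, so they depended on the library that stood apart. At least 2-fold more labeled RNA with 4sU in both replicates was found in all 7 genes, as in 99.2% of genes tested at 60 min and 97.8% at 20 min, and so does not set the 7 genes apart.

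The labeled to total ratio with 4sU did not place the 7 genes together. At 60 min YNL134C had ratios of 13.9 and 16.1, and OYE2 had 10.2 and 14.2, where the median over 5367 genes was 7.86. OYE3 had 6.43 and 8.01 and GRE2 had 5.95 and 6.22, so the old yellow enzymes fell on different sides of the median by their ratios of means, 12.3 for OYE2 and 7.24 for OYE3. At 20 min YNL134C had 24.3 and 22.4, OYE2 15.0 and 17.5, OYE3 5.57 and 8.74 and GRE2 6.28 and 7.61, where the median over 5082 genes was 9.17. OYE2, YNL134C, YKL071W and GTT2 were above the median at both times by their ratios of means, and OYE3, YML131W and GRE2 below it. The replicates of GTT2 lay on either side of the median at each time, with 7.26 and 9.40 at 60 min and 8.60 and 10.3 at 20 min. Those of OYE3 and YML131W did so at 60 min. Genes with a higher ratio than YNL134C, the highest of the set, made up 16.4% of those compared at 60 min and 10.9% at 20 min. GRE2, the lowest of the set at both times, had 71.3% of genes above it at 60 min and 66.3% at 20 min. A high ratio with against without 4sU in total RNA therefore stood beside labeled to total ratios on either side of the median gene.

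**Figure D4:**
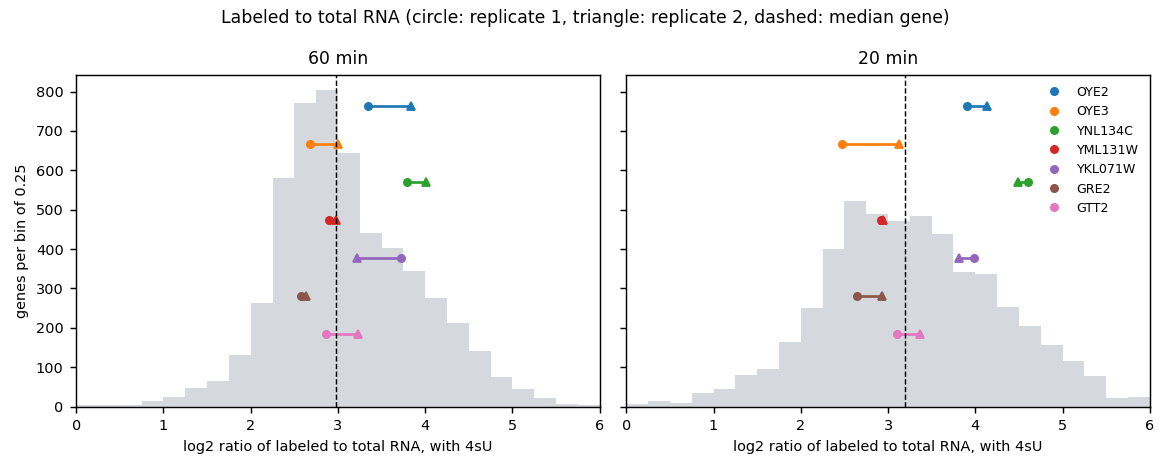
Grey bars count genes by the log2 ratio of labeled to total RNA with 4sU at 60 min (left) and 20 min (right), with the median gene dashed, and each colored line joins replicate 1 (circle) and replicate 2 (triangle) of 1 gene at a height chosen for legibility. YNL134C and OYE2 lie above the median gene in both replicates, GRE2 lies below it, and OYE3 and YML131W lie below it at 20 min in both replicates and on either side of it at 60 min.

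The change between 60 and 20 min was tested in 5 comparisons with edgeR's quasi-likelihood test, adjusted over all 6069 genes. Without a replicate block, OYE3 fell in each of the 3 fractions with 4sU and YML131W fell in total RNA without 4sU. No other gene of the set passed in that fit in any of the 5. The 3 fractions of a sample came from the same flask, so the falls of OYE3 are not independent results. With the replicate as a block, OYE3 lost its call in labeled RNA. OYE2, YNL134C and YML131W then passed in unlabeled RNA with 4sU, and YML131W in unlabeled RNA without 4sU, as given below. In labeled RNA with 4sU, OYE3 averaged 5793 ± 1107 normalized counts at 60 min and 16877 ± 1069 at 20 min (SD, n = 2 each). Its log2 fold change was -1.54, with a standard error of 0.41 and an adjusted p of 0.0131 in edgeR's test. It was the only gene of the 7 called, and lower calls made up 1.71% of all genes and higher calls 0.247%. The median log2 fold change over all genes was -0.43. With the replicate as a block the adjusted p was 0.925 at a log2 fold change of -1.55, and 14 genes were called in place of 119. All 7 genes had this adjusted p in the block fit. A block in a fit of only 4 libraries leaves little to estimate the spread, so that fit cannot tell whether OYE3 changed. The call was also lost when either 20 min library or replicate 1 at 60 min was left out, with log2 fold changes of -1.61, -1.48 and -1.36.

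In total RNA with 4sU, OYE3 averaged 800 ± 28.8 normalized counts at 60 min and 2456 ± 619 at 20 min (SD, n = 2 each). Its log2 fold change was -1.62 with a standard error of 0.38 (edgeR, adjusted p = 0.0020). Lower calls made up 2.14% of all genes, and no other gene of the set was called (higher calls made up 0.362%). Under the replicate block OYE3 kept its call (adjusted p = 5.58e-05), and leaving out replicate 1 at 20 min or either 60 min library ended it at log2 fold changes of -1.33, -1.58 and -1.65. GRE2 had 1641 ± 279 normalized counts at 60 min and 948 ± 232 at 20 min (SD, n = 2 each). Its log2 fold change of 0.79 did not pass (edgeR, adjusted p = 0.330). With TMM scaling, which sets the median change of all genes near 0, GRE2 passed in total RNA at 1.06 (adjusted p = 0.00278) and in labeled RNA at 1.07 (adjusted p = 0.00407). Whether GRE2 passed thus depended on the scale. For OYE2 and YNL134C, the log2 fold changes in total RNA with 4sU were 0.08 and 0.25 (adjusted p = 0.959 and 0.849).

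Without 4sU, total RNA showed another member of the set moving. YML131W averaged 89.6 ± 5.81 normalized counts at 60 min and 285 ± 15.1 at 20 min (SD, n = 2 each). This was a log2 fold change of -1.67, with a standard error of 0.39 and an adjusted p of 0.00168 in edgeR's test. YML131W kept its call with the replicate block, at -1.67 (edgeR, adjusted p = 3.31e-05). Leaving out either 60 min library ended the call, at -1.60 and -1.74. Lower calls made up 1.65% of all genes and higher calls 0.824%. With 4sU the same gene had 616 ± 107 and 770 ± 27.8 in total RNA at 60 and 20 min (SD, n = 2 each). Its log2 fold change there was -0.32 with an adjusted p of 0.785 in edgeR's test, and the difference between both changes was not tested. OYE3 without 4sU had 51.5 ± 7.40 at 60 min and 111 ± 78.4 at 20 min (SD, n = 2 each), and its log2 fold change of -1.08 did not pass (edgeR, adjusted p = 0.186). Its 20 min libraries, at 166 and 55.2, differed from each other by more than the times did. TMM scaling gave it -1.04 with an adjusted p of 0.0288, and leaving out replicate 2 at 20 min gave -1.69 with 0.00461. Leaving out replicate 1 at 20 min gave -0.10 with 0.928, so the change depended on which 20 min library was kept.

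In unlabeled RNA with 4sU, OYE3 averaged 49.8 ± 16.5 normalized counts at 60 min and 283 ± 149 at 20 min (SD, n = 2 each). The log2 fold change of -2.50 had a standard error of 0.73 and an adjusted p of 0.0381 in edgeR's test. Lower calls made up 1.91% of all genes and higher calls 0.0%, and the median gene stood at -1.17, so part of the distance was shared by most genes. TMM scaling put OYE3 at -1.32 (adjusted p = 0.0114). Leaving out replicate 2 at 20 min or either 60 min library ended the call, at -1.83, -2.20 and -2.89, as did a fit of only the 4 libraries compared (-2.50, adjusted p = 0.104). With the replicate block 2876 genes were called in place of 116, among them YML131W at -1.98 (adjusted p = 5.95e-09), YNL134C at -1.50 (adjusted p = 1.50e-05) and OYE2 at -1.25 (adjusted p = 0.000206) beside OYE3 at -2.45 (adjusted p = 2.89e-11). Without the block these 3 genes had adjusted p-values of 0.0837, 0.160 and 0.178.

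No gene of the set passed in unlabeled RNA without 4sU, where lower calls made up 0.544% of all genes and higher calls 0.0165%. YML131W had the largest change of the 7, with 93.5 and 165 normalized counts at 60 min against 381 and 491 at 20 min, a log2 fold change of -1.75 and an adjusted p of 0.762. With the replicate block it was -1.81 with an adjusted p of 2.66e-07, and 296 genes were called in place of 34. TMM scaling gave -1.62 with an adjusted p of 0.00152. The level of YML131W was thus lower at 60 min in both replicates of total and unlabeled RNA without 4sU. Total and unlabeled RNA of a sample came from the same flask, so the fractions are not independent results. GTT2 had log2 fold changes from -0.59 to 0.38 over the 5 comparisons and YKL071W from -0.81 to 0.19, and neither passed in any of them.

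**Figure D5:**
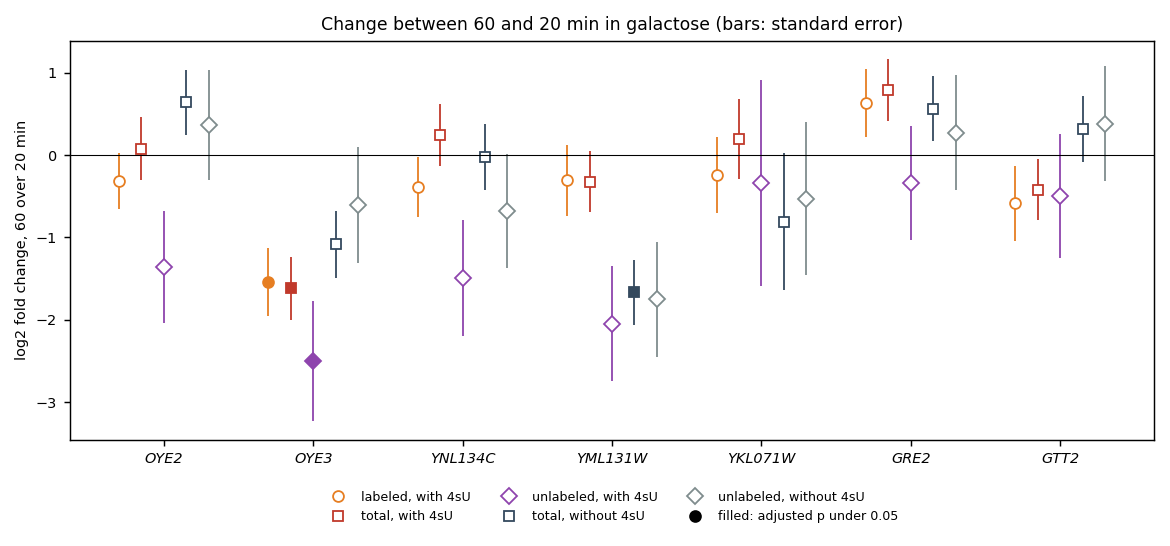
Points give the log2 fold change of 60 over 20 min in galactose for the 7 genes in 5 comparisons. Bars give the standard error, worked back from the F statistic of edgeR's test. Filled symbols mark an adjusted p under 0.05 in that test without a replicate block. OYE3 is filled in the 3 fractions with 4sU (-1.54, -1.62 and -2.50) and YML131W in total RNA without 4sU (-1.67).

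Other genes of related function were described with 2 lists. The first holds 13 targets of Yap1, the activator of the oxidative stress response, and the second 26 other NAD(P)H oxidoreductases and glutathione transferases. All were among the genes tested, and they are given by identifier, since the files pair no names with them. Both lists were drawn up with earlier results of these libraries known, so their counts and p-values describe these genes and are not independent evidence for a direction of either list. In total RNA with 4sU against without, 3 of the 13 Yap1 targets were higher at 60 min and 5 at 20 min, and 0 were lower, where 0.676% of all genes were called higher at 60 min and 1.15% at 20 min. With the replicate block 127 genes were called at 60 min and 235 at 20 min, in place of 78 and 99. The median log2 fold change of the list was 1.03 at 60 min and 1.10 at 20 min, where all genes had 0.07 and 0.36. Of the named genes of this list, YML116W had 203 and 306 normalized counts with 4sU at 60 min, against 50.1 and 34.6 without 4sU, 2.59 on the log2 scale with a standard error of 0.40 (adjusted p = 3.44e-08). YBR008C had 248 and 251 with 4sU at 60 min, against 103 and 41.3 without 4sU, a log2 fold change of 1.80 (adjusted p = 0.000462). At 20 min the log2 fold changes were 3.00 for YML116W, 1.85 for YBR008C and 1.79 for YJL101C (adjusted p = 6.62e-10, 0.000437 and 0.000622). The remaining calls were named after their values were seen. They were YLR109W at 60 min (4.06, standard error 0.66), which averaged under 50 normalized counts, and YBR244W and YDR011W at 20 min (1.58 and 1.41).

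Of the 26 other oxidoreductases and transferases, 3 were higher with 4sU and 0 lower at each time in total RNA, with list medians of 0.28 at 60 min and 0.31 at 20 min. Over all genes the medians were 0.07 at 60 min and 0.36 at 20 min, above that of the list at 20 min, and 0.676% and 1.15% of genes were called higher. Most of this list did not pass. YLR460C had 193 and 349 normalized counts with 4sU at 60 min, against 16.2 and 16.2 without 4sU, 4.05 on the log2 scale with a standard error of 0.44 (adjusted p = 3.46e-17), and 4.44 at 20 min (adjusted p = 7.64e-20). YCR102C had 104 and 167 with 4sU at 60 min, against 11.8 and 13.4 without 4sU, 3.41 on the log2 scale with a standard error of 0.44 (adjusted p = 5.58e-12), and 3.49 at 20 min (adjusted p = 6.83e-12). These 2 genes reached the range of the 7. The third gene called was YKR076W at 60 min (1.56, adjusted p = 0.0127) and YNL229C at 20 min (1.60, adjusted p = 0.00680).

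In unlabeled RNA with 4sU against without, 0 of either list were higher. At 60 min 8 of the 13 Yap1 targets and 13 of the 26 other genes were lower, and at 20 min 3 and 8, where 79.8% of all genes were lower at 60 min and 58.3% at 20 min (higher 0.0% and 0.0165%). The list medians at 60 min, -1.79 for both, were less negative than the -3.19 of all genes, as at 20 min with -0.84 and -0.98 against -2.10. Between 60 and 20 min, 3 of the 26 fell in total RNA with 4sU and 3 without 4sU, namely YJR096W, YBR046C and YBR026C, at log2 fold changes from -1.43 to -1.35 with 4sU (adjusted p = 0.0110, 0.0129 and 0.0168) and from -1.60 to -1.37 without 4sU (adjusted p = 0.00269, 0.0183 and 0.00964). Over all genes 2.14% were called lower with 4sU and 1.65% without 4sU, and the list medians were -0.54 with 4sU and -0.59 without, where all genes had -0.21 and 0.05. Of the 13 Yap1 targets, 0 were called with 4sU in total or labeled RNA and 1, YLR109W, was lower without 4sU in total RNA. Its log2 fold change was -3.70, with a standard error of 0.69 (edgeR, adjusted p = 1.24e-05). YLR109W averaged under 50 normalized counts over the total RNA libraries and was named after its values were seen. In unlabeled RNA with 4sU, 3 of the 26 fell between the times, YJR096W at -2.81, YKR076W at -2.77 and YBR026C at -2.25, and 0 of the 13, where 1.91% of all genes were called lower. YKR076W averaged under 50 normalized counts over the unlabeled libraries and was named after its values were seen. The list medians in unlabeled RNA with 4sU were -1.65 for the 26 and -1.16 for the 13, where all genes had -1.17.

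Over the 8 total RNA libraries, the genes whose log2(normalized count + 1) most resembled the mean of the 7 were YCR102C (Pearson's r = 0.994), YLR460C (0.989), YDL243C (0.983), YMR038C (0.982) and YPR158W (0.977), out of 3546 genes that averaged 50 normalized counts or more. The first 2 are the genes of the second list with the highest ratios. YDL243C had 92.3 to 165 normalized counts with 4sU, against 19.2 to 27.0 without 4sU, and YMR038C had 397 to 504 with 4sU, against 133 to 185 without 4sU. The 8 libraries fall into those with and those without 4sU, so this likeness mostly reflects the step between them, and 1.95% of the genes compared had an r above 0.9. For the 6 genes of the set that reached this level, all but YKL071W, r with the mean ran from 0.886 for YML131W to 0.995 for YNL134C. Each of these genes is itself part of that mean, which raises its r.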

How the data were processed

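Per the study's methods, the authors used HISAT2 (2.0.4) to map reads to the budding yeast build R64, and featureCounts to count them on genes, by strand and with multi-mapping reads included, so near-identical genes may share reads. They deposited raw counts per gene and a second table, a signal in which every library's counts are divided by its S. pombe reads over 2000000. Members and lists were chosen with earlier results of these data known. Counts were tested with edgeR 4.0.16 (R 4.3.3), glmQLFit and glmQLFTest with Benjamini-Hochberg adjustment at 0.05, S. pombe reads as library sizes, and keeping genes seen in 50% or more of the 24 libraries. Total and unlabeled RNA were fitted with their 8 libraries each, and labeled RNA with the 4 libraries with 4sU. Standard errors were worked back from the test, as the absolute log2 fold change over the square root of its F statistic. The fits were tested on simulated counts. Total counts ran from 1073888 to 38373886 per library. With 2 replicates per group, the spread behind each test rests on few samples, and counting intervals are given for YKL071W.

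By the growth protocol, 1 culture was split over both times and both treatments, so replicate numbers pair the samples. Deviations of same-numbered samples correlated across genes with r from 0.21 to 0.48 in total and unlabeled RNA and with -0.01 in labeled RNA. The named genes are the 7 members, at most 3 called genes of each list per comparison that averaged 50 normalized counts or more, by size of change, and the 5 genes most like the mean of the members. Alternatives were TMM, DESeq2 1.42.0, other filters, other sets of libraries in the fit, the replicate block and each library left out. Gene lengths and sequences were not used here, so levels are not compared between genes.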

Additional observations from a re-analysis of the deposited data

Results flagged for a closer look

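Some genes moved one way in both replicates of one condition and the opposite way in both replicates of the other, and none of these differences was tested. In unlabeled RNA, OYE2 had a log2 ratio of means with over without 4sU of -0.98 at 60 min and 0.74 at 20 min, and OYE3 had -0.19 at 60 min and 1.70 at 20 min. Higher with 4sU at 20 min and lower at 60 min in both replicates was found in 19 of 6069 genes (0.313%). Most genes were lower with 4sU at both times on this scale, and the sign for OYE3 at 60 min turned with CPM scaling.

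Over 60 against 20 min, GTT2 in total RNA had a log2 ratio of means of -0.42 with 4sU and 0.29 without. In unlabeled RNA, OYE2 had -1.36 with 4sU and 0.36 without, and GRE2 had -0.34 with 4sU and 0.27 without. In edgeR's fit the median gene stood at -1.17 with 4sU and -0.13 without, so part of the fall with 4sU was shared by most genes. With TMM scaling GRE2 had 0.85 with 4sU and 0.42 without, so its directions no longer differed. OYE2 had -0.14 with 4sU and 0.49 without on that scale. In labeled RNA, YKL071W had -0.24 with 4sU and 0.92 without, where it had 1 to 6 raw counts per library. TMM scaling turned the value of YKL071W with 4sU to 0.21. GRE2 in labeled RNA had 0.63 with 4sU and -1.90 without. Without 4sU its labeled counts were 10.3 and 3.33 at 60 min against 46.0 and 4.77 at 20 min, and the 46.0 is from the library that stood apart.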

How the results depend on the processing

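Replicates were 2 per group, and a comparison with 1 library left out assumes that the lone library varies like the other groups. The counts of genes called at 60 against 20 min in labeled RNA with 4sU, total RNA with 4sU, total RNA without 4sU and unlabeled RNA without 4sU were 119, 152, 150 and 34, and with TMM scaling 306, 458, 572 and 135, and with DESeq2's own size factors 491, 509, 621 and 182. For unlabeled RNA with 4sU the 116 calls became 265 with DESeq2's own size factors and 503 with DESeq2 on S. pombe factors. TMM moved the median log2 fold change in labeled RNA from -0.43 to 0.00 and the calls from 15 higher and 104 lower to 141 and 165, and in total RNA with 4sU from -0.21 to 0.05 and from 22 and 130 to 191 and 267. In unlabeled RNA with 4sU it moved the median from -1.17 to -0.02, with 37 higher and 73 lower in place of 0 and 116, and OYE3 to -1.32. In total RNA without 4sU it gave 239 higher and 333 lower in place of 50 and 100, and in unlabeled RNA without 4sU 39 and 96 in place of 1 and 33.

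With against without 4sU, the 78 genes at 60 min and 99 at 20 min in total RNA became 228 and 167 with TMM (at 20 min 80 higher and 87 lower in place of 70 and 29), 253 and 238 with DESeq2's own size factors, and 161 at 20 min with DESeq2 on S. pombe factors. In unlabeled RNA the 4843 at 60 min and 3539 at 20 min became 2719 and 2278 with TMM (1293 higher and 1426 lower in place of 0 and 4843, and 1042 and 1236 in place of 1 and 3538), 2562 and 2098 with DESeq2's own size factors, and 2224 and 1283 with at least 10 counts in every library, a filter that leaves 2807 genes. With the replicate block, a paired fit, the calls at 60 against 20 min became 14 in labeled RNA, 279 in total RNA with 4sU, 2876 in unlabeled RNA with 4sU and 296 in unlabeled RNA without 4sU, and those with against without 4sU in total RNA 127 at 60 min and 235 at 20 min. The block changed no other call of the 7 genes than those given in the report. All 12 libraries with 4sU in the fit gave 74 in total RNA and 1852 in unlabeled RNA. Only the 4 libraries compared gave 63 in unlabeled RNA with 4sU, 93 in total RNA without 4sU, and 238 at 60 min and 38 at 20 min for total RNA with against without 4sU. The cause of these changes was not tested.

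With 1 library left out, calls at 60 against 20 min ran from 15 to 184 in labeled RNA, 55 to 216 in total RNA with 4sU, 67 to 230 in total RNA without 4sU, 4 to 586 in unlabeled RNA with 4sU and 8 to 24 in unlabeled RNA without 4sU. With against without 4sU they ran from 28 to 37 at 60 min and 62 to 196 at 20 min in total RNA, and from 3564 to 4941 and 1701 to 3752 in unlabeled RNA.

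OYE2 passed in total RNA without 4sU at 0.64 with TMM (edgeR, adjusted p = 0.0385) and at 0.64 with DESeq2's own size factors (adjusted p = 0.00973). In unlabeled RNA with 4sU, DESeq2 on S. pombe factors called YNL134C at -1.49 (adjusted p = 0.0447) and YML131W at -2.05 (adjusted p = 0.0173). All 12 libraries with 4sU in the fit called OYE2, YNL134C and YML131W in unlabeled RNA. Of the 7 genes, changes in time that had not passed turned direction as follows. In labeled RNA, TMM and DESeq2's own size factors gave 0.10 and 0.11 for OYE2, 0.0504 and 0.0591 for YNL134C, 0.11 and 0.12 for YML131W, and 0.21 and 0.22 for YKL071W. In unlabeled RNA with 4sU, TMM gave 0.79 for YKL071W, 0.85 for GRE2 and 0.70 for GTT2, and DESeq2's own size factors 0.88 for GRE2. With a library left out, the ranges crossed 0 in total RNA with 4sU for OYE2 (-0.10 to 0.28) and YKL071W (-0.20 to 0.56), in total RNA without 4sU for YNL134C (-0.33 to 0.32) and GTT2 (-0.0742 to 0.76), in unlabeled RNA with 4sU for YKL071W (-1.36 to 0.92), GRE2 (-0.995 to 0.51) and GTT2 (-0.97 to 0.22), and in unlabeled RNA without 4sU for OYE2 (-0.15 to 0.74). CPM scaling turned the log2 ratios with over without 4sU in unlabeled RNA at 60 min to 0.65 for OYE3, 0.60 for YNL134C and 0.31 for YML131W, from -0.19, -0.18 and -0.54, and at 20 min to 0.38 for YML131W from -0.25. Without replicate 1 the ratio was 0.0303 for YNL134C at 60 min and 0.0789 for YML131W at 20 min, and without replicate 2 that of GRE2 was -0.23 at 60 min and -0.0557 at 20 min, against 0.22 and 0.83 with both replicates. No ratio in total or labeled RNA changed direction under these alternatives.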
